A study of Homo sapiens with 6 samples.

Results

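The organic cation and nucleoside drug transporters described here are 9 genes of the solute carrier (SLC) superfamily, found by their gene names among the 57341 named genes of the deposited count table. They were SLC47A1, SLC47A2, SLC22A2, SLC22A3, SLC22A4, SLC22A5, SLC29A1, SLC29A2 and SLC29A4, and all 9 had a row. RNA was sequenced from the human adrenocortical carcinoma line H295R (labelled as parental cells, 3 replicates) and from H295R-PM-Ptc+ (labelled as the Ptch1 subpopulation, 3 replicates), which are H295R cells sorted by flow cytometry for the Hedgehog receptor Ptch1 at the plasma membrane and then expanded. Both were grown untreated in the same medium. As a model, H295R-PM-Ptc+ is the progeny of sorted cells of one line, and the labels do not say whether the replicates were separate sorts or cultures, so p-values measure the spread between these 6 libraries.

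Cells take up and release charged drugs, hormones and metabolites through such carriers. The SLC22 family holds facilitative carriers of organic cations (OCT) and the cation and carnitine carriers OCTN. The SLC47 family (MATE) exchanges protons for organic cations at the plasma membrane and so works mainly as an exporter. The SLC29 family holds the equilibrative nucleoside transporters (ENT), which let nucleosides and nucleoside drugs cross membranes down their gradient, and PMAT, which carries monoamines and other organic cations. Substrates of these families include metformin, platinum compounds, gemcitabine and cytarabine, which is why they are followed in studies of drug response.

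Each library held 23264403 to 25813247 counted fragments. As a check of the labels, the H295R-labelled libraries held 441, 559 and 579 counts of PTCH1 and those labelled H295R-PM-Ptc+ held 248, 326 and 319, which is 21.3 ± 2.56 against 12.2 ± 2.19 CPM (counts scaled to library size; SD, n = 3 each; edgeR quasi-likelihood test, log2 fold change -0.81, adjusted p = 0.0207). The adjusted p was 0.0799 and 0.0921 when the H295R-labelled replicate 2 or 3 was left out and 0.0618 when replicate 2 of the other group was, with the sign kept. The RNA of the sorted gene thus went against the label, although the sort selected for the protein at the surface. Each normalized column of the study's own supplementary gene table is a scaled copy of a deposited column, with its replicate code kept and its group name exchanged. With the study's own naming of these columns, PTCH1 RNA would be higher in H295R-PM-Ptc+. The counts alone cannot settle which naming is right, so groups are written here as the H295R-labelled libraries and the H295R-PM-Ptc+-labelled libraries. Exchanging the names would turn every direction given here. All 8 adrenocortical markers examined (NR5A1, STAR, CYP11A1, CYP17A1, CYP21A2, HSD3B2, MC2R and FDX1) were expressed, with a summed level of 965 to 1240 CPM in the H295R-labelled libraries and 1040 to 1322 CPM in the others. Of these, CYP21A2 (steroid 21-hydroxylase, which has a near-identical pseudogene) was higher in the H295R-PM-Ptc+-labelled libraries (log2 fold change 0.88, edgeR adjusted p = 0.00670), and 3 passed with the replicate block, STAR and CYP21A2 higher and CYP11A1 lower. Of the 9 fibroblast, endothelial and leukocyte markers 6 had at most 3 counts in every library, among them LUM, PTPRC and CD68 at 0 throughout, and the list summed to 7.48 to 9.06 CPM in the H295R-labelled libraries and to 9.23 to 10.8 CPM in the others, which were all higher, most of it COL1A1.

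Levels are compared between genes only per length, as RPKM, which is CPM divided by exon length in kilobases. SLC47A1, which encodes the exporter MATE1, had the highest level of the 9 genes in each library, at 67.0, 53.0 and 51.9 RPKM in the H295R-labelled libraries and 38.8, 28.6 and 29.6 RPKM in those labelled H295R-PM-Ptc+. Its mean lay above that of 93.8% of the 16710 genes tested. SLC22A3, which encodes the extraneuronal monoamine and organic cation carrier OCT3, followed with 19.2 to 31.6 RPKM over the 6 libraries. The ranges of SLC47A1 and SLC22A3 overlapped across libraries, but within each library SLC47A1 was the higher, by 1.30 to 2.97 times.

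SLC29A1 (ENT1, the ubiquitous equilibrative nucleoside transporter of the plasma membrane) came next with 7.75 to 12.7 RPKM and stood apart from the genes above and below it in every library. SLC29A2 (ENT2, which also carries nucleobases) had 2.65 to 4.85 RPKM and SLC29A4 (PMAT) 2.04 to 3.68 RPKM, and these ranges overlapped. SLC22A5, which encodes the carnitine importer OCTN2, had 1.32 to 1.72 RPKM, below SLC29A4 in each library. SLC22A4, which encodes the ergothioneine carrier OCTN1, had 0.402 to 0.586 RPKM. Within the OCTN pair, SLC22A5 exceeded SLC22A4 by 2.25 to 4.26 times per length in the 6 libraries.

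The renal carriers were at the limit of detection. SLC22A2 (OCT2, the basolateral cation carrier of the kidney tubule) had 2, 1 and 1 counts in the H295R-labelled libraries and 1, 2 and 1 in the others. SLC47A2 (MATE2, the exporter of the tubule's apical side) had 0 counts in 5 libraries and 3 counts in the H295R-PM-Ptc+-labelled replicate 1. A level of up to 3 counts, which is 0.117 to 0.130 CPM at these depths, cannot be told from 0, so no fold change is given for these 2 genes. These limits cover counting error only.

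**Figure D1:**
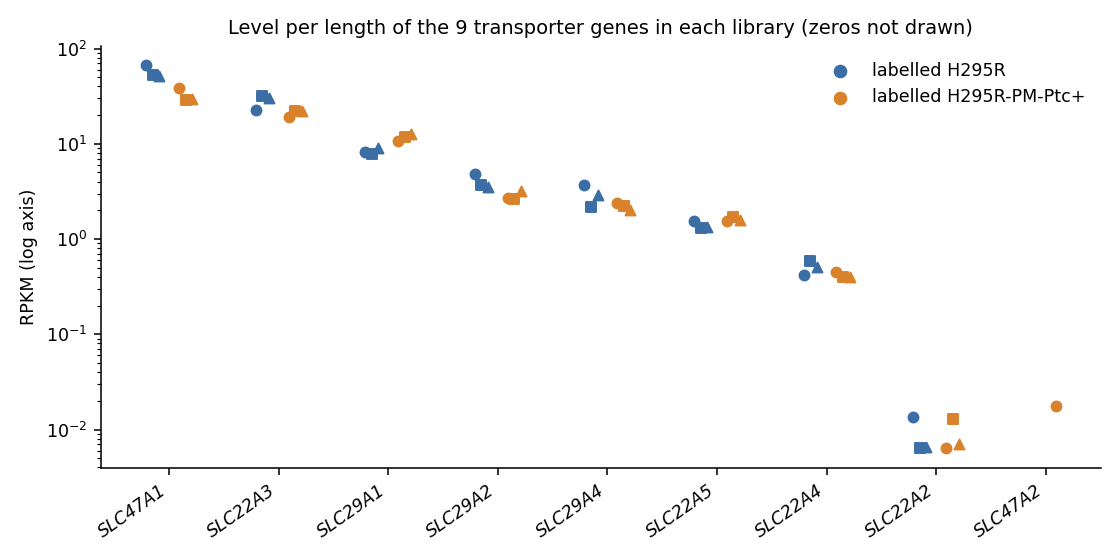
Level per length (RPKM, log axis) of the 9 transporter genes, ordered by their mean, with one point per library (circle, square and triangle for replicates 1, 2 and 3). SLC47A1 and SLC22A3 lie above 19 RPKM in every library, SLC22A2 and the single nonzero value of SLC47A2 lie below 0.02 RPKM, and the 5 zeros of SLC47A2 are not drawn.

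To ask which carriers differed between the sorted and the parental cells, all 16710 genes with enough counts were fitted together with edgeR's quasi-likelihood test, and 7 of the 9 transporters passed the filter on low counts. In the H295R-PM-Ptc+-labelled libraries, SLC47A1 was lower and SLC29A1 was higher, and these 2 of the 7 had an adjusted p under 0.05, where 3.73% of all genes tested did (1.32% lower and 2.42% higher). DESeq2 called the same 2, where 5.45% of genes passed (2.08% lower and 3.37% higher), and 4 passed, 3 of them lower, when low counts were not filtered, where 3.59% did (1.33% lower and 2.25% higher). The other 5 did not pass by the main test. Of the 7 genes, 5 had a negative and 2 a positive log2 fold change, with a median of -0.39 against 0.00094 over all genes tested. In 5 of the 7 the groups had no overlap in CPM, as in 23.5% of all genes tested. Without overlap the sign must also be kept across all 3 pairs that share a replicate number. These same 5 kept it, as 52.6% of all genes did. The study had singled out SLC47A1 and SLC22A3, and a group of genes with SLC22A4 and SLC29A4, from these same libraries. Their values are thus not independent evidence of a direction, and the direction itself depends on which group naming holds. With the study's own naming of the columns, SLC47A1 and SLC22A3 would be higher and SLC29A1 lower in H295R-PM-Ptc+. As these are bulk libraries, fewer cells that express a gene and less RNA per cell cannot be told apart.

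Same-numbered replicates deviated together, most clearly replicate 1, so the fit was also made with the replicate number as a block. The labels do not state a pairing. The block left the fold changes nearly as they were and narrowed their standard errors, except that of SLC22A4, which went from 0.212 to 0.233. With it 5 of the 7 genes passed, 4 of them lower and 1 higher, where 22.5% of all genes tested passed (10.4% lower and 12.1% higher). The block counts of neighbors and lists given below stand beside that same share. At an unadjusted p under 0.05 by the main test there were 2886 of all 16710 genes. The 3 genes that passed with the block and not by group alone were SLC22A3, SLC29A2 and SLC29A4.

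**Figure D2:**
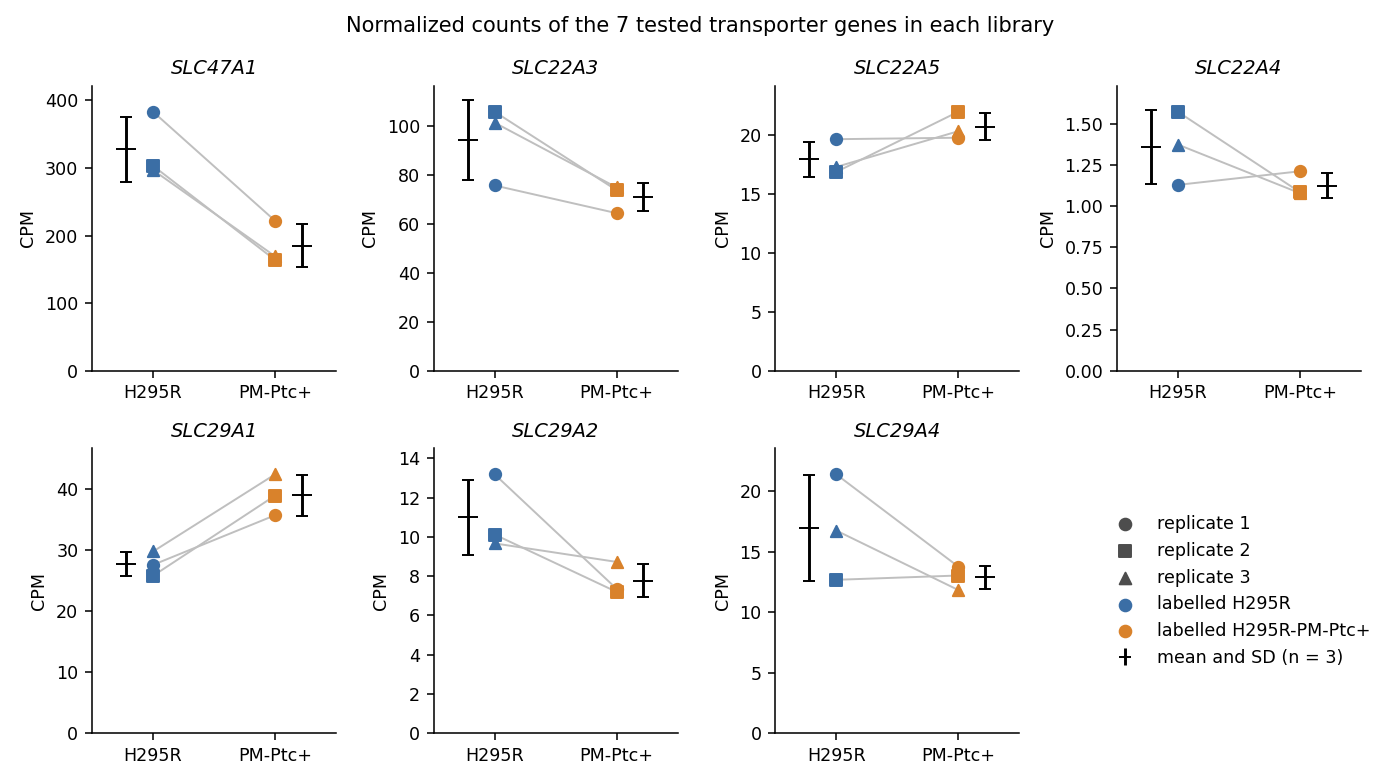
Normalized counts (CPM, linear axis from 0) of the 7 tested transporter genes, one panel per gene, with grey lines joining same-numbered replicates and black marks for the mean and SD of 3 libraries. The groups do not overlap for SLC47A1, SLC22A3, SLC22A5, SLC29A1 and SLC29A2, and overlap for SLC22A4 and SLC29A4.

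SLC47A1 lies on chromosome 17 from 19495385 to 19579034 (hg38, plus strand), with 20 exon blocks in the authors' annotation. The H295R-labelled libraries held 9155, 7701 and 7339 counts of it, or 383, 303 and 297 CPM. The H295R-PM-Ptc+-labelled libraries held 5671, 4073 and 3920 counts, or 222, 164 and 169 CPM. Replicate 1 was the highest of its group on both sides, and the lowest library labelled H295R still lay above the highest of the other group.

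The means were 328 ± 48.1 and 185 ± 32.0 CPM (SD, n = 3 each), 1.77-fold lower in the H295R-PM-Ptc+-labelled libraries (log2 fold change -0.82, standard error 0.141, edgeR adjusted p = 0.0156). Within the pairs of same-numbered replicates the log2 ratios were -0.79, -0.89 and -0.81 for replicates 1, 2 and 3, a narrower range than that of the levels themselves, and with the replicate block the standard error was 0.0429 (edgeR adjusted p = 2.56e-09). An exact permutation test of the 6 CPM values gave p = 0.1 (two-sided), the lowest value this design can return, as it did for the other 4 genes without overlap. Leaving out the H295R-PM-Ptc+-labelled replicate 2 or 3 raised the edgeR adjusted p to 0.0694 or 0.0745, at log2 fold changes of -0.74 and -0.78. The counting error of a library was 1.11% and 1.48% of the mean in the 2 groups, against a spread between replicates of 14.7% and 17.3%, so depth did not limit this gene. SLC47A1 shares 203 exon bases with the opposite-strand transcript RP11-1113L8.1, which had 13 to 28 counts per library.

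SLC22A3 lies on chromosome 6 from 160348268 to 160452581 (plus strand). It had 75.6, 106 and 101 CPM in the H295R-labelled libraries and 64.3, 73.6 and 74.8 CPM in those labelled H295R-PM-Ptc+. Replicate 1 was here the lowest of its group on both sides, the reverse of SLC47A1, and the groups were separated by less than 1 CPM. The log2 fold change was -0.41 (standard error 0.128, edgeR adjusted p = 0.129), with log2 ratios of -0.23, -0.52 and -0.44 within the 3 pairs. The adjusted p was 7.73e-05 with the replicate block, 0.0217 when low counts were not filtered and 0.00795 without the H295R-labelled replicate 1, where the log2 fold change was -0.55.

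SLC22A5 and SLC22A4 lie side by side on chromosome 5, from 132369752 to 132395614 and from 132294443 to 132344206, both on the plus strand. SLC22A5 had 19.7, 16.9 and 17.3 CPM in the H295R-labelled libraries and 19.8, 22.0 and 20.3 CPM in the other group. The groups did not overlap, but at replicate 1 they nearly met, with a log2 ratio within the pair of 0.0091 against 0.38 and 0.23 in the others. Its log2 fold change was 0.21 (standard error 0.0947, edgeR adjusted p = 0.310, and 0.0722 with the replicate block).

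SLC22A4 had only 27, 40 and 34 counts in the H295R-labelled libraries and 31, 27 and 25 in those labelled H295R-PM-Ptc+. The groups overlapped, and the pair of replicate 1 went up while the other pairs went down. The log2 fold change of -0.27 had a standard error of 0.212 (edgeR adjusted p = 0.581, and 0.451 with the replicate block), and it was -0.15 without the H295R-labelled replicate 2. Counting error alone was 17.2% of the mean in the H295R-labelled libraries and 19.0% in the others. The spreads between replicates were smaller, at 16.4% and 6.66%. A change of this size was not resolved with these libraries at this depth. An opposite-strand transcript, AC034220.3, shares 235 exon bases with SLC22A4 and 73 with SLC22A5, and had 40 to 71 counts per library, more than SLC22A4 itself in each of the 6.

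SLC29A1 lies on chromosome 6 from 44219505 to 44234151 (plus strand). Its counts were 660, 656 and 737 in the H295R-labelled libraries and 914, 969 and 983 in those labelled H295R-PM-Ptc+, or 27.6, 25.8 and 29.8 CPM against 35.8, 39.0 and 42.5 CPM. All 3 libraries labelled H295R-PM-Ptc+ lay above the other 3. The mean rose from 27.8 ± 2.00 to 39.1 ± 3.35 CPM (SD, n = 3 each), 1.41-fold (log2 fold change 0.49, standard error 0.0923, edgeR adjusted p = 0.0230, and 3.27e-05 with the replicate block).

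The pairs of same-numbered replicates gave log2 ratios of 0.37, 0.59 and 0.51. Leaving out the H295R-labelled replicate 2 or 3 gave an edgeR adjusted p of 0.0928 or 0.0658. Leaving out replicate 2 or 3 of the other group gave 0.0889 or 0.123. All 6 such fits had log2 fold changes of 0.42 to 0.55. SLC29A1 shared exon bases with no other gene of the table.

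RefSeq (GRCh38.p14) gives promoter windows for 6 of the 9 genes, 8 windows of 300 bases in all. SLC47A1, SLC22A3 and SLC29A2 had none. Of the genes with a window, SLC29A1 is the one that passed the test, so the stretches before its first exons are shown. It has 2 annotated starts, and each stretch begins 250 bases before the start and ends at the base before the exon of the authors' annotation (exons from 44219505 and from 44223565). They read 5′ to 3′ on the plus strand, with GC boxes (GGGCGG on either strand, bound by Sp1-type factors) in capitals.
SLC29A1 upstream start, chr6:44219365-44219504: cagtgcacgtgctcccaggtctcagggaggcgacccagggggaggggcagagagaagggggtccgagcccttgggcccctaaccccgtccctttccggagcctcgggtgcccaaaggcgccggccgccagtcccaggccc
SLC29A1 downstream start, chr6:44223345-44223564: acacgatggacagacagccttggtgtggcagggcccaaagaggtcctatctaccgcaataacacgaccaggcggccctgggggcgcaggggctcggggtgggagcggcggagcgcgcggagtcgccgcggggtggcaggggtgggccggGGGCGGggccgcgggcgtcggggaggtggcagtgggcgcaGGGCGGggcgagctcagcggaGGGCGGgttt

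The stretch before the downstream start held 3 GC boxes and the other none, while both whole windows of 300 bases held 3. Over the transporters 7 of 8 windows held a GC box, as did 45.0% of the 35116 RefSeq windows of this length. CCAAT was found in 2 of the 8, both of SLC47A2 (34.6% of all windows), and TATAAA in 0 of 8 (11.5%). The binding sequence of the GLI factors of the Hedgehog pathway, GACCACCCA, was in 0 of 8 (0.236% of all windows), and that of the adrenal factor SF-1, CAAGGTCA, in 0 of 8 (1.28%), all searched on both strands. The counts per gene do not tell which start was used.

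SLC29A2 lies on chromosome 11 from 66362521 to 66372214 (minus strand) and went the other way from SLC29A1. It had 13.2, 10.1 and 9.67 CPM in the H295R-labelled libraries and 7.36, 7.20 and 8.73 CPM in those labelled H295R-PM-Ptc+, without overlap. The log2 fold change was -0.50 (standard error 0.149, edgeR adjusted p = 0.111), and the log2 ratios of the pairs ran from -0.84 at replicate 1 to -0.15 at replicate 3. It passed with the replicate block (0.00604) and with no filter on low counts (0.0354). With SLC29A1 higher and SLC29A2 lower, the ratio of their levels per length was 1.71, 2.08 and 2.52 in the H295R-labelled libraries and 3.97, 4.42 and 3.97 in those labelled H295R-PM-Ptc+. That these ratios separate the groups follows from the separation of both genes. SLC29A2 shares 279 exon bases with the opposite-strand transcript RP11-867G23.8, which had 28 to 50 counts per library.

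SLC29A4 lies on chromosome 7 from 5274369 to 5306870 (plus strand). It had 21.4, 12.7 and 16.7 CPM in the H295R-labelled libraries and 13.8, 13.03 and 11.8 CPM in those labelled H295R-PM-Ptc+. The library labelled H295R replicate 2 fell among those of the other group, and the log2 ratios of the pairs were -0.64, 0.040 and -0.50. The log2 fold change of -0.39 (standard error 0.174, edgeR adjusted p = 0.291) shrank to -0.19 without the H295R-labelled replicate 1 and was -0.57 without H295R replicate 2. With the replicate block the adjusted p was 0.0175. It shares 81 exon bases with TNRC18 on the opposite strand, which had 2787 to 3337 counts per library, more than SLC29A4 itself. The pseudogenes SLC29A4P1 and SLC29A4P2 drew at most 1 count in any library.

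**Figure D3:**
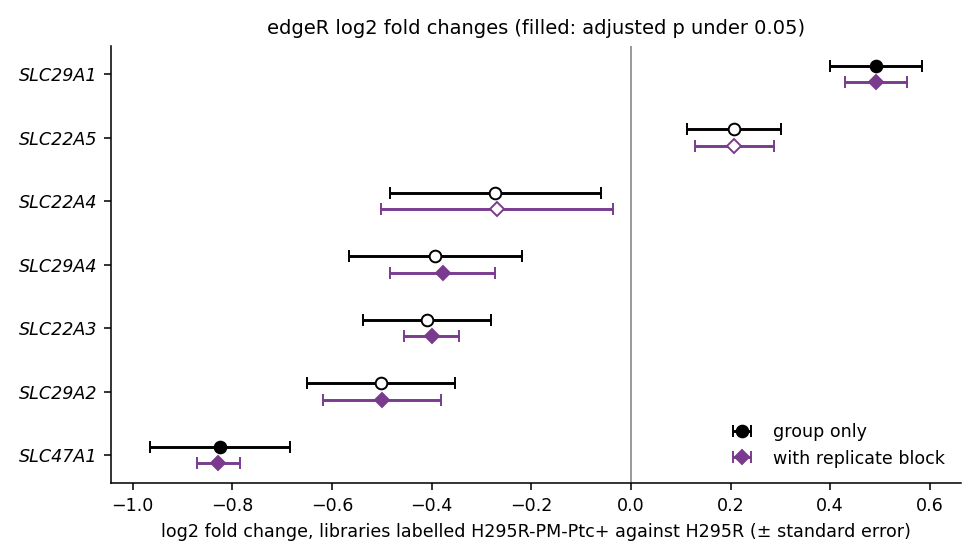
edgeR log2 fold changes of the 7 tested transporter genes (libraries labelled H295R-PM-Ptc+ against H295R) with their standard errors, from the fit with group only (black circles) and with the replicate block (purple diamonds), filled where the adjusted p was under 0.05. SLC47A1 and SLC29A1 pass in both fits, and of these 2 fits SLC22A3, SLC29A2 and SLC29A4 pass in the one with the block.

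Summed over the 9 genes, the level per length was 108, 100.1 and 99.4 RPKM in the H295R-labelled libraries and 75.8, 69.4 and 71.9 RPKM in those labelled H295R-PM-Ptc+. SLC47A1 made up 61.8%, 52.9% and 52.2% of this sum in the first group and 51.2%, 41.3% and 41.2% in the second. The share of SLC29A1 was 7.65%, 7.74% and 8.999% against 14.2%, 16.9% and 17.7%. SLC22A3 held 20.8% to 31.5% in the first group and 25.3% to 31.7% in the second, so its share overlapped between the groups although its level did not.

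**Figure D4:**
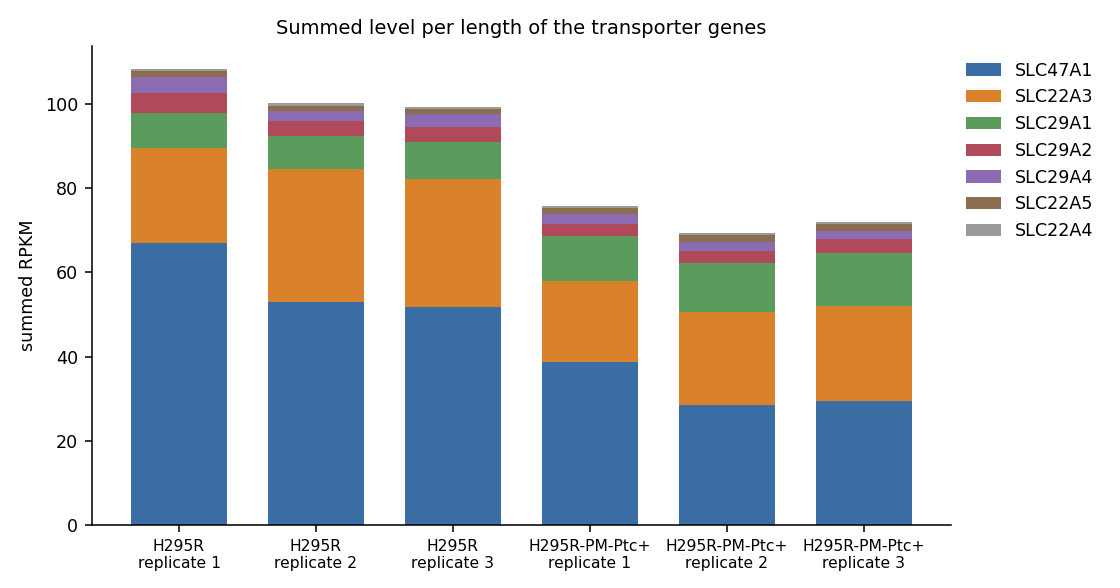
Summed RPKM of the transporter genes in each of the 6 libraries (stacked bars from 0, one color per gene; SLC22A2 and SLC47A2 are too low to draw). The 3 bars labelled H295R reach 99.4 to 108 RPKM and the 3 labelled H295R-PM-Ptc+ 69.4 to 75.8 RPKM, with a shorter SLC47A1 segment and a longer SLC29A1 segment in the latter.

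The genes beside each transporter were examined to see whether whole stretches of chromosome moved with it. Around SLC47A1, none of the 10 nearest tested genes had an adjusted p under 0.05 by edgeR or limma-voom (1 by DESeq2, 1 with the replicate block and 1 at an unadjusted p under 0.05). Of these 10, 4 were positive and 6 negative, and their median log2 fold change was -0.08, which leaves a difference of -0.75 between SLC47A1 and that median. The gene that passed with the block was ALDH3A2, a fatty aldehyde dehydrogenase and the fourth tested gene downstream, with a log2 fold change of -0.32 (edgeR adjusted p = 0.0664, and 4.11e-05 with the block). Around SLC29A1 none of 10 passed by edgeR, DESeq2 or limma-voom (3 with the block and 3 at an unadjusted p under 0.05), at a median of -0.04. Around SLC22A3, SLC29A2 and SLC29A4 none passed by these 3 tools either (3, 0 and 0 with the block, and 2, 0 and 0 at an unadjusted p under 0.05), with medians of 0.17, -0.07 and -0.01.

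Beside the OCTN genes on chromosome 5 the main test called some neighbors. Of the 10 neighbors of SLC22A5, 2 passed, both higher in the H295R-PM-Ptc+-labelled libraries, and 1 of these was also among the neighbors of SLC22A4. With the replicate block 5 of 10 passed beside SLC22A5 and 3 of 10 beside SLC22A4, where 22.5% of all genes tested did, and at an unadjusted p under 0.05 there were 3 and 2. IRF1, an interferon response factor, stood at 0.47 on the log2 scale (standard error 0.107, edgeR adjusted p = 0.0470) and the transcript AC004041.2 at 0.74 (standard error 0.108, edgeR adjusted p = 0.00726). The adjusted p of IRF1 was 0.0552 among genes with at least 10 counts throughout, and it passed in 1 of the 6 fits that left out a library, the one without H295R replicate 1 (0.0178, up to 0.178 in the others), and that of AC004041.2 rose to 0.0525 without H295R replicate 3. The 10 neighbors of SLC22A5 had a median log2 fold change of 0.19, close to its own 0.21, while SLC22A4, which lies among them, was at -0.27.

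**Figure D5:**
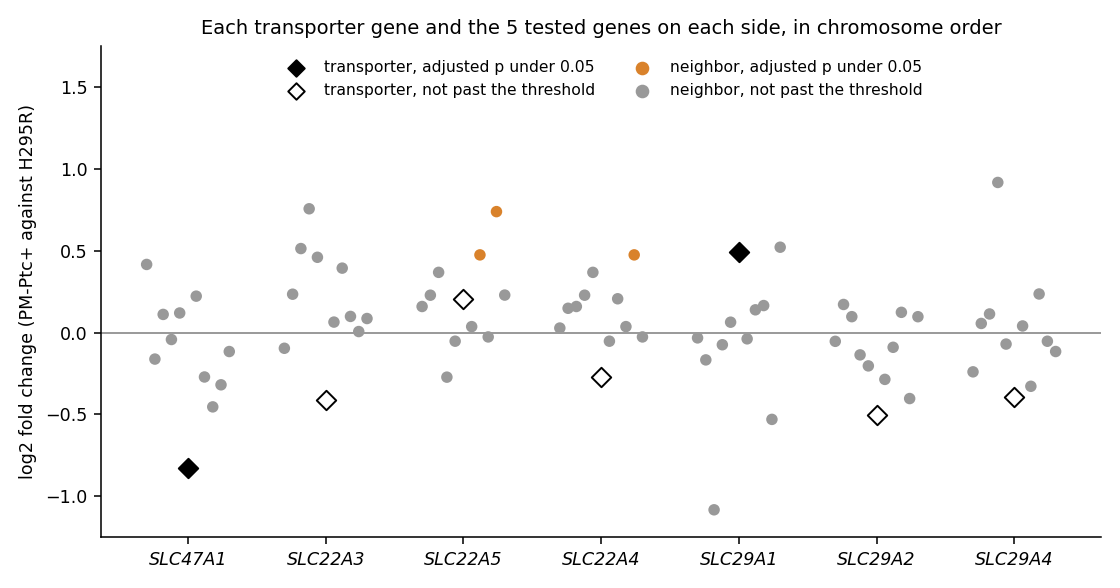
log2 fold changes (libraries labelled H295R-PM-Ptc+ against H295R) of each tested transporter gene (diamond, filled where the adjusted p was under 0.05) and of the 5 tested genes on each side of it in chromosome order (points, orange where the adjusted p was under 0.05). SLC47A1 lies below and SLC29A1 above most of its neighbors, and the orange points are IRF1 and AC004041.2 beside SLC22A5 and IRF1 beside SLC22A4.

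Some genes followed the 2 called transporters closely across the libraries. For SLC47A1, Pearson's correlations of log2 CPM over the 6 libraries were highest with CCDC77 (0.999), ALDH3A2 (0.999) and TCF25 (0.998), among 10160 genes with at least 10 CPM on average, and for SLC29A1 with ARNT2 (0.998), HNRNPUL1 (0.994) and NEURL1B (0.994). Such values are a description of 6 points that share their libraries and groups, since 173 genes for SLC47A1 and 126 for SLC29A1 exceeded 0.95. ALDH3A2 was thus both a chromosomal neighbor of SLC47A1 and one of the genes most like it. Its size of change was smaller, at 447 ± 21.1 against 358 ± 21.4 CPM (SD, n = 3 each).

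Most of the other SLC22 and nucleoside transporter genes were at or near 0 counts. Of 22 further SLC22, SLC28 and SLC29 genes, 14 had at most 3 counts in every library, among them SLC28A1, SLC28A2 and SLC28A3, the concentrative nucleoside transporters, and the organic anion carriers SLC22A6, SLC22A7 and SLC22A8, which were at 0 throughout. The 7 tested had a median log2 fold change of 0.01 and none passed by edgeR, DESeq2 or limma-voom (1 with the replicate block, 1 when low counts were not filtered and 1 at an unadjusted p under 0.05). SLC22A17, a receptor-like member, had the highest level of them at 8.08 ± 1.25 RPKM (SD over 6 libraries), with a log2 fold change of -0.02, and SLC29A3 (ENT3, the lysosomal nucleoside transporter) had 2.90 ± 0.301 RPKM and 0.01. SLC22A15 stood at -0.60 (standard error 0.239, edgeR adjusted p = 0.238, and 5.39e-04 with the block), and lay at -0.27 without the H295R-labelled replicate 1, which had 18.7 CPM against 10.5 and 10.5 in the others of its group.

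Among 18 other carriers of amines, choline, thiamine, folate and copper, 11 were tested and 1 passed, lower in the H295R-PM-Ptc+-labelled libraries (5 with the replicate block, 3 higher and 2 lower), with a median of 0.13. It was SLC44A1, the choline transporter CTL1, at 398 ± 9.06 against 316 ± 10.7 CPM (SD, n = 3 each; log2 fold change -0.34, standard error 0.0711, edgeR adjusted p = 0.0378). It passed in 1 of the 6 fits that left out a library, the one without H295R replicate 1, and its adjusted p was between 0.0515 and 0.166 in the other 5. SLC31A1, the copper importer CTR1 that also admits cisplatin, had the highest level of this list at 41.5 ± 2.45 RPKM (SD over 6 libraries) and a log2 fold change of -0.14, and SLC44A2 had 34.3 ± 2.14 RPKM and 0.06. The plasma membrane transporters of dopamine and serotonin (SLC6A3 and SLC6A4) and the vesicular amine transporters (SLC18A1 and SLC18A2) had at most 1 count per library.

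Of 11 organic anion carriers of the SLCO family 3 were tested, all below 0.5 RPKM on average. SLCO3A1 was higher in the H295R-PM-Ptc+-labelled libraries, at 4.40 ± 0.424 against 2.80 ± 0.0651 CPM (SD, n = 3 each; log2 fold change 0.65, standard error 0.144, edgeR adjusted p = 0.0432). It passed in none of the 6 fits that left out a library, where its adjusted p was between 0.0530 and 0.173. SLCO4A1 had 0.498 ± 0.124 RPKM (SD over 6 libraries) and a log2 fold change of 0.56 (edgeR adjusted p = 0.180, and 0.0381 with the replicate block).

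Enzymes that act on the nucleosides ENT1 and ENT2 admit, or on nucleotides, were tested in the same fit. Of the 24 genes of this salvage list, which also holds genes of nucleotide metabolism such as RRM2, 22 were tested. None passed by edgeR, DESeq2 or limma-voom, and their median log2 fold change was -0.03. With the replicate block 4 passed, 2 in each direction, where 22.5% of all genes tested did. At an unadjusted p under 0.05 there were 4, where 2886 of all 16710 genes were. DGUOK, the mitochondrial deoxyguanosine kinase, stood at -0.28 (edgeR adjusted p = 0.0974) and SAMHD1, which degrades deoxynucleotides, at 0.26 (0.0953). DCK, the kinase that activates gemcitabine and cytarabine, stood at -0.16 (0.423). RRM2, a ribonucleotide reductase subunit, and DGUOK had the highest levels per length, at 58.2 ± 7.22 and 54.1 ± 6.30 RPKM (SD over 6 libraries). The cytidine deaminase CDA, which inactivates both drugs, had at most 3 counts in any library.

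For carnitine, the substrate of OCTN2, 9 of 10 genes were tested and 1 passed (2 with the replicate block). CROT, the peroxisomal carnitine octanoyltransferase, was 1.36-fold lower in the H295R-PM-Ptc+-labelled libraries, at 107 ± 6.55 against 79.2 ± 5.00 CPM (SD, n = 3 each; log2 fold change -0.44, standard error 0.0819, edgeR adjusted p = 0.0221). It passed in 1 of the 6 fits that left out a library, the one without H295R replicate 1 (0.00961), and its adjusted p was between 0.0548 and 0.108 in the other 5. ALDH9A1, which acts in carnitine synthesis, and CRAT, the mitochondrial acetyltransferase, had the highest levels at 40.0 ± 1.88 and 30.1 ± 2.85 RPKM, with log2 fold changes of 0.10 and 0.09. BBOX1, the last enzyme of carnitine synthesis, was at 0 in all 6 libraries. CPT1A stood at -0.18 (edgeR adjusted p = 0.615, and 0.0208 with the block).

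None of the 7 tested of 9 scaffold and transcription factor genes linked to these carriers passed by edgeR, DESeq2 or limma-voom (1 with the replicate block and 1 at an unadjusted p under 0.05), with a median log2 fold change of 0.08. The gene that passed with the block was SLC9A3R1, which encodes the scaffold NHERF1, at 0.35 (edgeR adjusted p = 0.147, and 9.90e-04 with the block) and 11.7 ± 1.92 RPKM (SD over 6 libraries). SP1, a factor that binds GC boxes, had 23.4 ± 2.28 RPKM and a log2 fold change of -0.04. HNF4A, a hepatic and renal regulator of several SLC22 genes, had at most 7 counts per library. Of 7 markers of the renal proximal tubule 4 had at most 3 counts in every library, with SLC34A1 at 0, and the list summed to 2.43 to 2.64 CPM in the H295R-labelled libraries and 2.94 to 3.30 CPM in the others. The 6 hepatocyte markers summed to 0.728 to 1.18 and 1.29 to 1.49 CPM, with TTR at 0, so both lists, like that of the fibroblast, endothelial and leukocyte markers, were somewhat higher in the H295R-PM-Ptc+-labelled libraries. Their part in the results was not tested.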

How the data were processed

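Per the labels and the study's methods, the authors aligned paired reads to hg38 with STAR 2.4.0a, ran featureCounts with a strand setting on an Ensembl GRCh38 annotation summed by gene name, keeping multiply mapped reads at their primary position, and deposited raw counts for 6 libraries. The stated strand setting (forward) differs from the usual one for the stranded kit named. GAPDH had 3230 to 3454 and ACTB 2022 to 2639 CPM, so sense reads were counted, but whether opposite-strand reads were left out could not be checked, and exon bases shared with opposite-strand genes may hold reads of either. The deposited table also held 1 row without a gene name, which had no counts and was left out. Gene coordinates are those of the deposited table.

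From these counts, genes were kept by filterByExpr, scaled by TMM and fitted by group alone in edgeR 4.0.16 (R 4.3.3; glmQLFit and the two-sided glmQLFTest), with p-values adjusted by Benjamini-Hochberg over 16710 genes. CPM use TMM-scaled library sizes, and RPKM divide them by the deposited gene length. Same-numbered replicates deviated together from their group means (log2 CPM, correlations of 0.228 to 0.497, against -0.352 to 0.150 for the other combinations). Replicate 1 stood out, at 0.497 with its own number and -0.352 to -0.250 with the others. Replicates 2 and 3 gave 0.307 and 0.228 with their own number and 0.150 and 0.109 across. A pairing of these 2 is not clear from such values, and the labels state none. The code was tested on simulated data. Alternatives were DESeq2 1.42.0, limma-voom (limma 3.58.1), relative log expression size factors, testing every gene with counts, requiring at least 10 counts in every library, the replicate block, and each library left out.

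The members and lists were chosen with earlier results of these data known. Named are all members, PTCH1, each called gene and the 2 highest genes per list, called neighbors (5 tested genes on each side), the 3 most correlated genes, and others named after their values were seen (SLC22A15, SLC9A3R1, DCK, SAMHD1, CPT1A, ALDH3A2 as a neighbor, and genes at or near 0).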

Additional observations from a re-analysis of the deposited data

How the results depend on the processing

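No fold change of the 7 tested transporters changed sign under the 12 alternatives. With no filter on low counts, 4 transporters passed instead of 2 (1111 genes instead of 624), SLC22A3 (-0.41) and SLC29A2 (-0.51) being added, and the lists gave 1 of the other SLC22 and nucleoside carriers and 2 of the cation, vitamin and metal carriers; SLC22A2 and SLC47A2, untested otherwise, did not pass there (edgeR adjusted p of 1.00 and 0.607). With the replicate block, 5 transporters and 3758 genes passed, with SLC22A3 (-0.40), SLC29A2 (-0.50) and SLC29A4 (-0.38) added, and the lists gave 1, 5, 2, 4, 2 and 1 for the other SLC22 and nucleoside, the cation, the SLCO, the nucleoside salvage, the carnitine and the scaffold genes; the block changed no call of the other transporters. With 1 library left out the count of transporters ran from 0 (without H295R-PM-Ptc+ replicate 2 or 3) to 3 and that of all genes from 219 to 810, and the log2 fold changes from -0.98 to -0.70 for SLC47A1, -0.55 to -0.32 for SLC22A3 and 0.42 to 0.55 for SLC29A1. The lists ran from 0 to 1 for the cation and carnitine genes and stayed at 0 for the SLCO genes. Fewer libraries enter these fits. DESeq2 gave 911 genes. Depth limited SLC22A4, SLC22A2 and SLC47A2.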
